A study of Mus musculus with 14 samples.

Results

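Neutrophils are marked by a small set of transcripts, of which 8 are described here: the calcium-binding pair S100a8 and S100a9, the secreted protein Retnlg, the receptors Csf3r, Cxcr2, Il1r2 and Trem1, and the collagenase Mmp8. These 8 genes were taken by name from the 24411 genes counted in bulk RNA sequencing of mouse kidneys, and their levels were compared between days and between libraries named with 1-digit and 3-digit numbers. The cells are short-lived white blood cells that circulate in blood and are drawn into injured tissue within hours, guided by chemokines and by adhesion molecules on the vessel wall. In the ischemic kidney they gather mainly in the vessels and interstitium of the outer medulla. All 14 libraries were from kidneys of male C57/B6 mice aged 8 weeks, with 4 libraries at day 0, 5 at day 1 and 5 at day 3 after renal ischemia/reperfusion injury (IRI), in which the blood supply is stopped and then restored. Day 0 libraries carry control names, and whether those mice had a sham operation is not given in the sources used here. The labels do not say whether replicates were separate animals or how many kidneys entered a library, so p-values measure the spread between these libraries.

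The number in the deposited library name has 1 digit in all day 0 libraries, in day 1 replicates 3, 4 and 5 and in day 3 replicates 4 and 5. It has 3 digits in day 1 replicates 1 and 2 and in day 3 replicates 1, 2 and 3. The labels do not explain this format, which was treated as a possible technical batch. Reads on genes ranged from 12485579 to 20476979 per library, and levels are given as CPM, a gene's reads scaled to its library's size and by edgeR's trimmed mean of M values (TMM). Between libraries, 1 CPM stands for 12.4 to 22.0 reads. In bulk RNA, a change in the number of neutrophils and a change in RNA per neutrophil cannot be told apart. Ly6g, the defining surface marker of mouse neutrophils, was not analysed here.

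The 8 genes lie on 6 chromosomes in the GENCODE M21 annotation of GRCm38 (mm10). S100a8 (ENSMUSG00000056054.9) spans chr3:90668978-90670035 on the + strand and S100a9 (ENSMUSG00000056071.12) spans chr3:90692632-90695721 on the - strand, 22.6 kb away. Cxcr2 (ENSMUSG00000026180.8, chr1:74153989-74161246) and Il1r2 (ENSMUSG00000026073.13, chr1:40074079-40125231) share chromosome 1 but are far apart on it. The others are Retnlg (ENSMUSG00000022651.6, chr16:48872621-48874496), Csf3r (ENSMUSG00000028859.14, chr4:126024550-126044440), Mmp8 (ENSMUSG00000005800.3, chr9:7558456-7568485) and Trem1 (ENSMUSG00000042265.13, chr17:48232768-48246924). All except S100a9 are on the + strand. Reads were summed over exons and counted by strand, and over all 14 libraries the opposite strand of each gene held 0 to 3 reads. Il1r2 overlaps the annotated genes Gm16894 and Gm37347, and Trem1 overlaps AC241601.2, so reads in a stretch shared on the same strand went to none of them.

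Promoters of 3 genes are shown because S100a8 and S100a9 gave most of the neutrophil reads, and because Mmp8 held both of the searched myeloid motifs. They are the 250 bases before the RefSeq start in GRCm38.p6, 5′ to 3′ on the gene's own strand, and capitals mark motif matches on either strand.
S100a8, chr3:90668821-90669070, + strand: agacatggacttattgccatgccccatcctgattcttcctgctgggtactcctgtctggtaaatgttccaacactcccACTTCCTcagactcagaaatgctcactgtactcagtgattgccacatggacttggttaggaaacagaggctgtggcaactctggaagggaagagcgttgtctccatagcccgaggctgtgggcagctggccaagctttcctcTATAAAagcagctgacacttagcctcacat
S100a9, chr3:90695722-90695971, - strand: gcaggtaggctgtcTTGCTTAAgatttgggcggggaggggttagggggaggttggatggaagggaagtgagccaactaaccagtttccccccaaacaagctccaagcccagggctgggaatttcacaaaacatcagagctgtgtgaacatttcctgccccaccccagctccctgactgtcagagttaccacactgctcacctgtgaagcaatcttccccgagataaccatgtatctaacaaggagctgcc
Mmp8, chr9:7558179-7558428, + strand: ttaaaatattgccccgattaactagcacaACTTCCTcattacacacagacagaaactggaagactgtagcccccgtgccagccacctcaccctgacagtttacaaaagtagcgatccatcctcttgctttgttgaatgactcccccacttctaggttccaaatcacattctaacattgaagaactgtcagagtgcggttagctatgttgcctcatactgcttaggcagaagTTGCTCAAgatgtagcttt

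The searched letters were TTGCNNAA (bound by C/EBP factors), AGGAAGT (bound by PU.1) and TATAAA (the TATA box), none of which overlapped another in these windows. C/EBP letters were found in 3 of the 8 promoters (S100a9, Mmp8 and Retnlg) and in 9.56% of 32851 mouse promoters of the same length. PU.1 letters were found in 3 of the 8 (S100a8, Mmp8 and Trem1) and in 7.69% of all promoters. TATAAA was found in S100a8 only among the 8, 30 bases before the start, and in 12.4% of all. A match is a description of letters and not of a bound site.

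Kidneys at day 0 held almost no neutrophil transcripts, and all 8 genes were higher in every injured library than in every day 0 library. The sum of the 8 genes was 1.45 to 2.30 CPM at day 0, 55.6 to 241 CPM at day 1 and 22.3 to 458 CPM at day 3. All 8 rose at day 1 and all 8 rose at day 3 in edgeR's quasi-likelihood test with Benjamini-Hochberg adjustment over 14300 genes, at an adjusted p under 0.05. Among all genes tested, 23.3% rose at day 1 and 19.5% at day 3. Those that rose without overlap between groups were 19.5% at day 1 and 14.3% at day 3. All 8 also passed the filter on low reads, for which at least 4 libraries had to exceed 0.583 CPM. Except for Csf3r, which exceeded that level in 3 day 0 libraries, and S100a9, which did so in 1, they passed through the injured libraries alone, so the count of 8 is a description. The median ratio of pooled reads was 106-fold at day 1 and 150-fold at day 3, that is 6.73 and 7.23 on the log2 scale, where the median of all tested genes was 0.02 and 0.05. Both comparisons share the day 0 libraries.

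**Figure D1:**
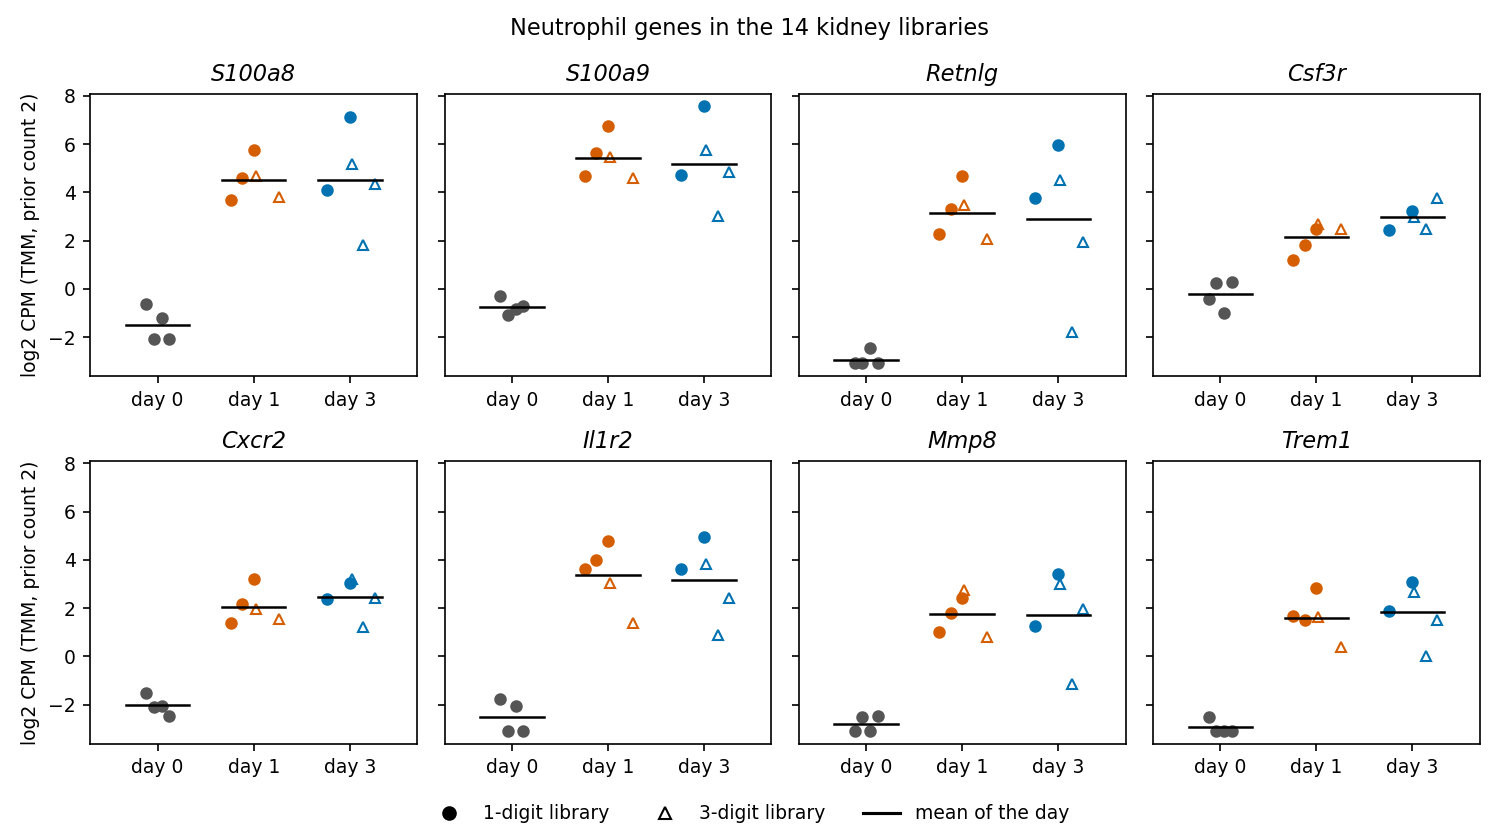
Level of each neutrophil gene in each of the 14 libraries, as log2 CPM with a prior count of 2, against the day after renal IRI. Filled circles are 1-digit libraries, open triangles 3-digit libraries and lines the mean of a day. All 10 injured libraries lie above the 4 day 0 libraries for all 8 genes, and day 3 replicate 2 is the lowest injured library for 7 of them.

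S100a8 and S100a9 encode the partners of calprotectin, a complex abundant in the neutrophil cytosol, which binds zinc and calcium and signals through Tlr4 and Ager. S100a8 was at 0.518, 0.118, 0.316 and 0.121 CPM in day 0 replicates 1 to 4. It was at 25.4, 13.8, 12.7, 23.8 and 54.5 CPM in day 1 replicates 1 to 5, and at 36.2, 3.38, 20.1, 17.0 and 139 CPM in day 3 replicates 1 to 5. The groups of day 0 and of injury did not overlap, and the day 3 range contained the whole day 1 range. With reads pooled by day, S100a8 was 89.6-fold higher at day 1 (95% interval 56.5 to 151) and 143-fold higher at day 3 (90.3 to 242) than at day 0, where it had 18 reads in all. These intervals are exact and cover counting error only. The fitted log2 fold change was 6.55 (SE 1.11, adjusted p = 0.000559) at day 1 and 7.28 (SE 1.13, adjusted p = 0.000433) at day 3. The day 3 value was 6.13 without day 3 replicate 5, which held more of the pooled day 3 reads than the other 4 libraries together.

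S100a9 was at 0.690, 0.353, 0.442 and 0.484 CPM in day 0 replicates 1 to 4. At day 1 its level was 44.0, 24.2, 25.2, 49.8 and 106 CPM, and at day 3 it was 53.7, 8.11, 28.6, 26.6 and 190 CPM. The order of the libraries was close to that of S100a8, with day 3 replicate 5 highest and day 3 replicate 2 lowest among injured kidneys. Its fitted log2 fold change was 6.64 (SE 0.977, adjusted p = 0.00022) at day 1 and 6.93 (SE 0.985, adjusted p = 0.000242) at day 3, where it was 5.88 without day 3 replicate 5. There were 1.73 to 2.09 S100a9 reads per S100a8 read in the 5 day 1 libraries and 1.37 to 2.40 in the 5 day 3 libraries, without length scaling. The highest ratio was in day 3 replicate 2, with 144 reads of S100a9 and 60 of S100a8.

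Retnlg encodes a small secreted protein of the resistin family, found in blood neutrophils and bone marrow. It had 1 read in day 0 replicate 3 and 0 in the other day 0 libraries. Its level was 10.9, 4.09, 4.77, 9.72 and 25.4 CPM in day 1 replicates 1 to 5, and 22.9, 0.169, 3.71, 13.7 and 62.2 CPM in day 3 replicates 1 to 5. It had the widest spread of the 8 at day 3, where the highest library was 368-fold above the lowest, and the lowest held 3 reads, too few to set apart from the single day 0 read. The pooled ratio was 665-fold at day 1 (119 to 26310) and 1223-fold at day 3 (219 to 48350), with wide intervals because 1 read stood in the denominator. Retnlg rose at both days (log2 8.93 and 9.84, adjusted p = 0.00164 and 0.0012). Day 3 replicate 5 held 847 of its 1578 day 3 reads, and without it the day 3 value was 8.84.

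Cxcr2 is the receptor for the chemokines that draw neutrophils to a site of injury. It was at 0.230, 0.118, 0.126 and 0.060 CPM in day 0 replicates 1 to 4. At day 1 its levels were 3.83, 2.82, 2.52, 4.34 and 9.09 CPM, and at day 3 they were 9.16, 2.20, 5.20, 5.11 and 8.15 CPM. Day 1 and day 3 covered nearly the same range, from 2.52 to 9.09 and from 2.20 to 9.16 CPM. The fitted log2 fold change was 4.99 (SE 0.602, adjusted p = 5.38e-05) at day 1 and 5.40 (SE 0.606, adjusted p = 4.48e-05) at day 3.

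Csf3r is the receptor for granulocyte colony-stimulating factor, which drives the making and release of neutrophils. It had the most reads of the 8 before injury, at 0.633, 1.06, 0.379 and 1.09 CPM in day 0 replicates 1 to 4. In day 1 replicates 1 to 5 it was at 6.41, 5.41, 2.18, 3.37 and 5.47 CPM, and in day 3 replicates 1 to 5 at 7.79, 5.41, 13.6, 5.25 and 9.33 CPM. Its spread was the narrowest at day 3, with 2.59-fold between the highest and lowest library, and it was the member with the smallest fold change. The fitted log2 fold change was 2.52 (SE 0.429, adjusted p = 0.000586) at day 1 and 3.37 (SE 0.44, adjusted p = 0.00014) at day 3. Pooled reads gave 5.87-fold (4.40 to 7.97) and 10.7-fold (8.05 to 14.4).

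Il1r2 is a decoy receptor, which binds interleukin-1 without passing on its signal. It had 3, 0, 2 and 0 reads in day 0 replicates 1 to 4. Its level was 8.03, 2.50, 12.1, 15.9 and 27.5 CPM in day 1 replicates 1 to 5, and 14.3, 1.75, 5.30, 12.4 and 30.4 CPM in day 3 replicates 1 to 5. Both day 1 libraries with 3-digit numbers lay below the 3 with 1-digit numbers, as for 29.4% of all genes tested. The pooled ratio was 157-fold at day 1 (67.1 to 485) and 158-fold at day 3 (67.4 to 487). The log2 fold change fitted by edgeR was 7.32 (adjusted p = 0.000307) at day 1 and 7.28 (adjusted p = 0.000449) at day 3.

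Trem1 is a receptor of the innate immune system that amplifies inflammatory signals through the adaptor Tyrobp. It had 1 read in day 0 replicate 1 and 0 in the other 3 libraries. Day 1 levels were 2.96, 1.18, 3.07, 2.69 and 7.08 CPM, and day 3 levels were 6.31, 0.901, 2.72, 3.56 and 8.30 CPM. The highest library of each day was replicate 5. Trem1 was 204-fold higher at day 1 (36.4 to 8109) and 280-fold higher at day 3 (49.9 to 11090) in pooled reads. The log2 fold change fitted by edgeR was 7.24 (adjusted p = 0.000156) at day 1 and 7.61 (adjusted p = 0.000161) at day 3.

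Mmp8, the neutrophil collagenase, is an enzyme of the secondary granules. It had 1 read in each of day 0 replicates 2 and 4 and 0 in the other two. It reached 6.68, 1.64, 1.91, 3.32 and 5.23 CPM in day 1 replicates 1 to 5 and 7.94, 0.338, 3.76, 2.29 and 10.5 CPM in day 3 replicates 1 to 5. The lowest injured library held 6 reads, and replicate 1 was highest at day 1 while replicate 5 was highest at day 3. Its pooled ratio was 122-fold at day 1 (33.4 to 1011) and 161-fold at day 3 (44.3 to 1333). The log2 fold change fitted by edgeR was 6.65 (adjusted p = 0.000573) at day 1 and 7.06 (adjusted p = 0.000543) at day 3.

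Set side by side per kilobase of exon (RPKM), the order of the 8 genes was alike at both injured days. At day 1 S100a9 was at 95.6 RPKM, S100a8 at 37.5, Retnlg at 18.5 and Il1r2 at 6.92, while Mmp8, Cxcr2, Csf3r and Trem1 lay between 1.13 and 1.55. At day 3 S100a9 was at 118 RPKM, S100a8 at 62.1, Retnlg at 34.6 and Il1r2 at 6.72, and the last 4 lay between 1.46 and 2.29. The day 3 means of S100a9, S100a8 and Retnlg rest largely on replicate 5, at 364, 200 and 105 RPKM. The other day 3 libraries reached at most 103, 52.2 and 38.6 RPKM. Neighbours among the last 4 differed by far less than their spread over libraries, and Csf3r was below Cxcr2 and Mmp8 at day 1 and above both at day 3. At day 0 the first places were S100a9 at 0.943, S100a8 at 0.386 and Csf3r at 0.219 RPKM.

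The mix of the 8 transcripts was described without a test. Csf3r made up 26.1% to 62.1% of the summed CPM at day 0, 2.27% to 9.72% at day 1 and 2.04% to 24.3% at day 3, with its highest injured share in day 3 replicate 2. S100a8 and S100a9 together made up 27.6% to 52.5% at day 0, 58.8% to 68.3% at day 1 and 50.8% to 71.8% at day 3, so day 3 overlapped day 0. Retnlg made up at most 15.9%, and 0.76% in day 3 replicate 2. The day 0 shares rest on few reads.

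**Figure D2:**
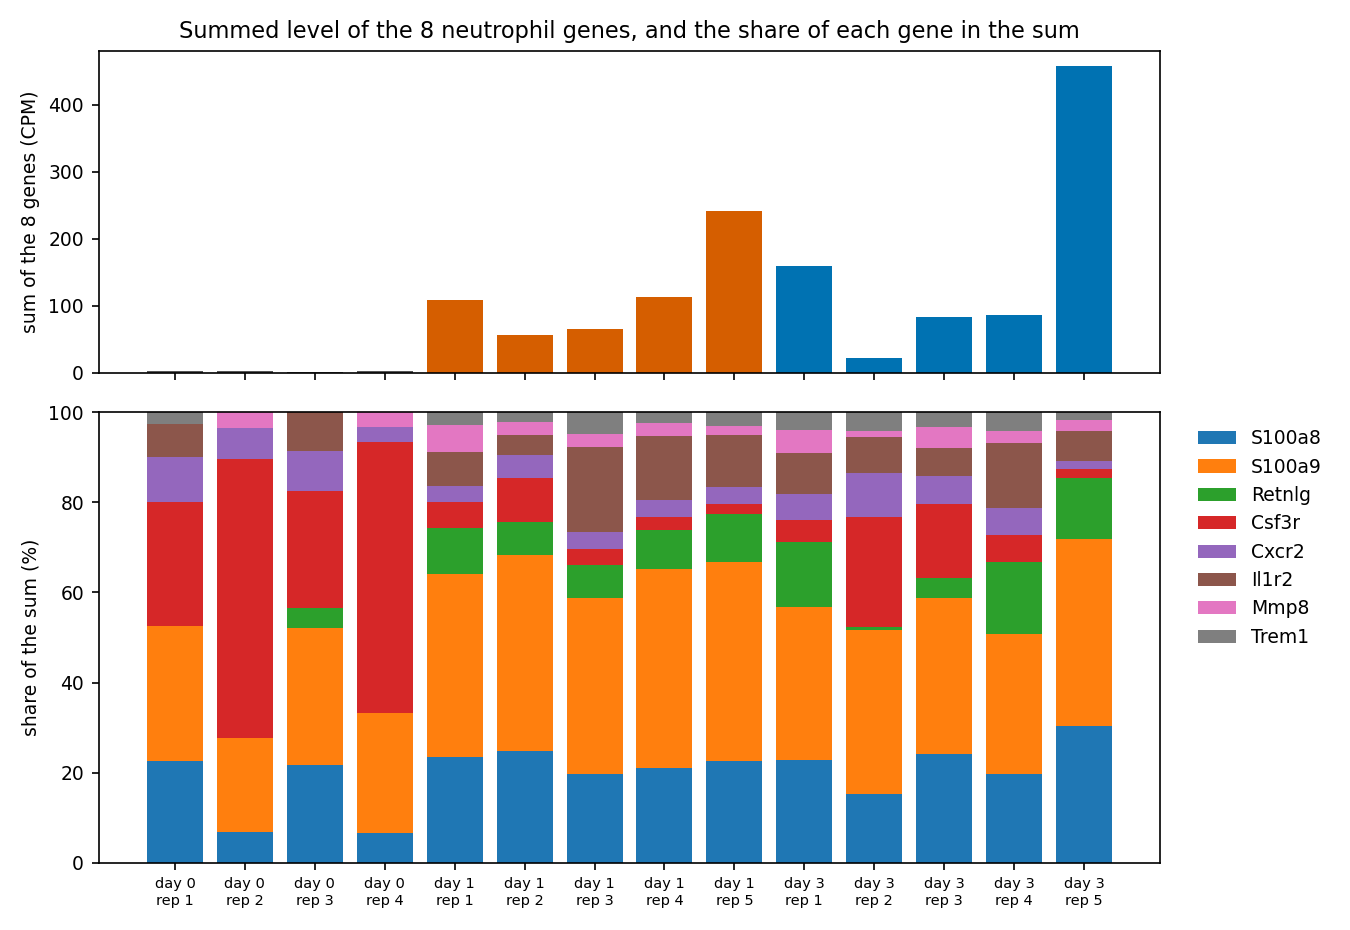
Upper panel, summed CPM of the 8 neutrophil genes in each library on a linear axis from 0. Lower panel, the share of each gene in that sum, in percent. The day 0 bars are near 0 (1.45 to 2.30 CPM), day 3 replicate 5 reaches 458 CPM, and Csf3r takes its largest shares at day 0 and in day 3 replicate 2 (24.3%).

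Between day 1 and day 3 no difference of the 8 genes was called. All 8 fitted values except that of Il1r2 were above 0, from 0.30 for S100a9 to 0.90 for Retnlg (SE 0.861), and Il1r2 was at -0.04 (SE 0.656). These directions rest on day 3 replicate 5. Without it the values were -0.46 for S100a8, -0.79 for S100a9, -0.13 for Retnlg, -0.66 for Il1r2, -0.08 for Mmp8 and -0.01 for Trem1, and those of Csf3r (0.79) and Cxcr2 (0.25) stayed above 0. Csf3r came nearest to the threshold, at 0.85 (SE 0.356, adjusted p = 0.114), and the others had adjusted p-values from 0.499 to 0.972. By edgeR 0 of 8 were called, beside 15.9% of all genes tested, and DESeq2 called 0 beside 23.0%. Of the 8, 1 had an unadjusted p under 0.05 by edgeR. The median pooled ratio of the 8 was 1.40-fold. The levels of day 3 were spread far more widely than those of day 1 for S100a8, S100a9, Retnlg and Mmp8. From lowest to highest library, S100a8 covered 4.27-fold at day 1 and 41.0-fold at day 3, and Mmp8 covered 4.09-fold and 31.1-fold.

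A pair of day 3 libraries marked the ends of this range. Day 3 replicate 2 was the lowest of the 10 injured libraries for 7 of the 8 genes, all except Csf3r, which was lowest in day 1 replicate 3. Day 3 replicate 5 was the highest for 6, all except Cxcr2 and Csf3r, which were highest in day 3 replicates 1 and 3. Other genes moved with these libraries. In day 3 replicate 2 the tubular injury gene Lcn2 was at 66.1 CPM, against 480 to 3403 CPM in the other injured libraries. Its protein is neutrophil gelatinase-associated lipocalin (NGAL), and whether its RNA came from tubules or neutrophils was not tested. In the same library the proximal tubule transporter Slc34a1 was at 4084 CPM, against 226 to 1335 CPM in the other day 3 libraries. Alas2, an enzyme of heme synthesis in red cell precursors, was at 0.338 CPM there, against 3.81 to 26.5 CPM in the other injured libraries. The part of these in the neutrophil values was not tested. Without either library all 8 genes stayed higher than at day 0 at both days.

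By number format, 0 of the 8 genes were called by edgeR within day 1, with 1 at an unadjusted p under 0.05, although the format called 35.0% of all genes tested there, and 0 by DESeq2, which called 38.3% of all genes. By edgeR the format called 1997 of 14226 genes without day 1 replicate 2 and 24.6% of genes without day 1 replicate 1, with 0 of the 8 in both, where all libraries gave 5001 of 14300. Each of these 2 fits has a single 3-digit library at day 1 and assumes that it varies like the other groups. The one was Il1r2, at 8.03 and 2.50 CPM in the 3-digit libraries against 12.1, 15.9 and 27.5 CPM in the 1-digit libraries (log2 -1.82, SE 0.755, adjusted p = 0.077). Csf3r and Mmp8 were at 0.69 (SE 0.465) and 0.25 (SE 0.906) on that scale, and the other 5 lay between -1.04 and -0.63. Several of these directions rest on 1 library. Without day 1 replicate 5 the values were 0.09 for S100a8, 0.04 for Retnlg, -0.06 for Cxcr2 and -0.14 for S100a9, and Mmp8 was at -1.09 without day 1 replicate 1 and -0.04 without day 1 replicate 3. Csf3r reads per Cxcr2 read were 1.68 and 1.92 in the 3-digit and 0.602 to 0.865 in the 1-digit libraries of day 1. At day 3 they overlapped, at 0.850, 2.46 and 2.61 in the 3-digit and 1.03 and 1.14 in the 1-digit libraries. Neither difference was tested.

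Within day 3, 0 of 8 were called by edgeR and 3 had an unadjusted p under 0.05, beside 18.5% of all genes tested called by edgeR, and DESeq2 called 0 of 8 beside 24.6%. These were S100a8 (log2 -1.96, SE 0.84, adjusted p = 0.113), S100a9 (-1.84, SE 0.757, adjusted p = 0.1) and Il1r2 (-1.58, SE 0.694, adjusted p = 0.12). Retnlg was at -2.08 (SE 1.06, adjusted p = 0.174). These values depend on single libraries: without day 3 replicate 1, S100a8, S100a9, Retnlg and Il1r2 were called lower in the 3-digit libraries, beside 33.5% of all genes tested, and without day 3 replicate 4, S100a8 and S100a9 were, beside 18.7%. The last of these compares 3 libraries with day 3 replicate 5 alone, the highest library for both genes, and takes its spread from the other groups. Without day 3 replicate 5, which leaves replicate 4 alone on the 1-digit side, the values were 0.21 for S100a8 and 0.16 for S100a9, now above 0, and -0.81 for Il1r2 and -0.62 for Retnlg, with 0 of the 8 called. The share of all genes called then fell to 0.638%. The format difference of day 1 minus that of day 3 was called for 0 of 8 genes by edgeR, beside 17.6% of all genes. DESeq2 called it for 0, beside 22.5%. By edgeR, 0 of the 8 had an unadjusted p under 0.05 for it. A p above the threshold with 2 or 3 libraries a side, or 1 where a library was left out, does not show equal levels. Against day 0, all 8 rose at both days in the 1-digit libraries alone, beside 28.9% (day 1) and 28.6% (day 3) of all genes tested. They also rose at both days in the 3-digit libraries alone, beside 22.6% and 19.1%, although there the format and the injury cannot be told apart.

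**Figure D3:**
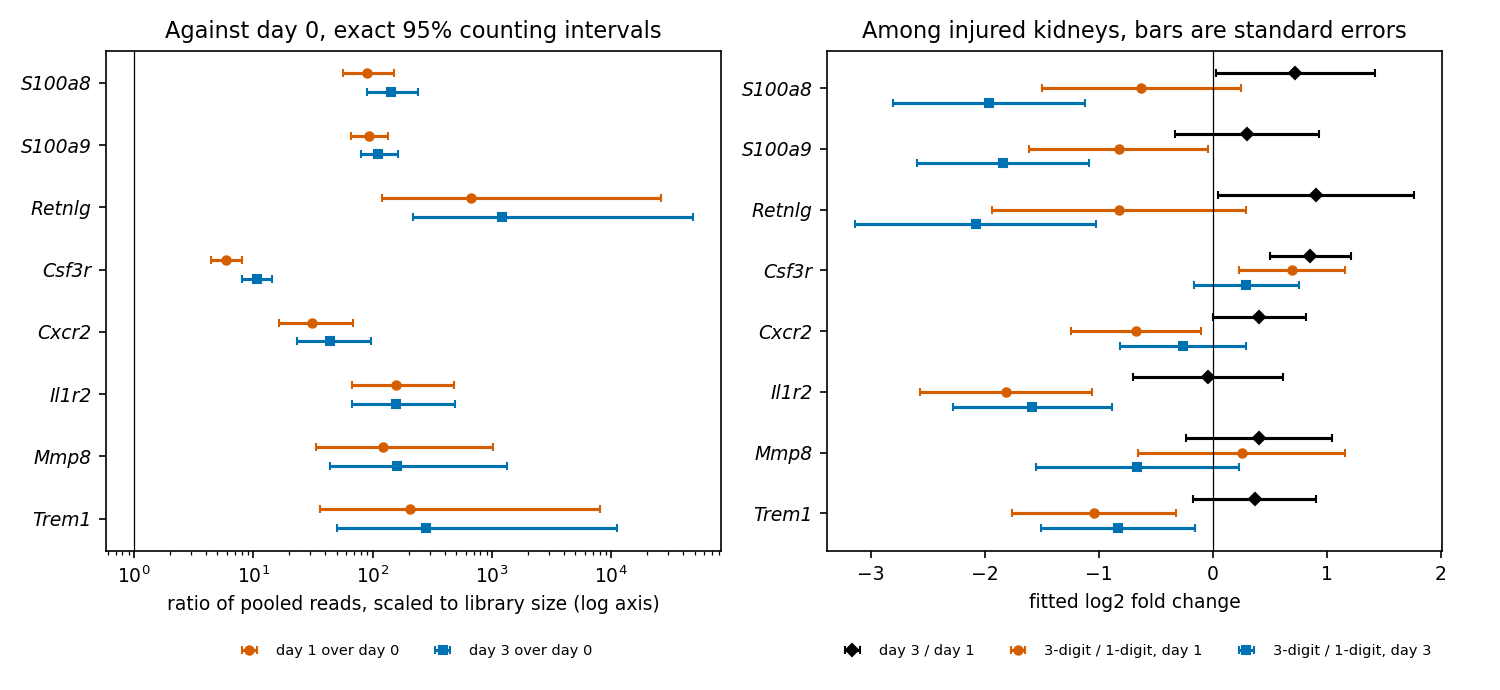
Left, ratio of pooled reads against day 0 on a log axis, with exact 95% counting intervals. Right, fitted log2 fold changes among injured libraries for day 3 against day 1 and for 3-digit against 1-digit libraries within each day, with standard errors. On the left every interval lies above 1, from 5.87-fold for Csf3r to 1223-fold for Retnlg, and on the right no value passed the threshold.

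Of 15 listed ligands and signalling partners of these receptors 14 were tested, of which 13 rose at day 1 and 12 at day 3. Among all genes tested, 23.3% and 19.5% rose. Cxcl2, Cxcl3, Cxcl5, Csf3 and Pglyrp1 had day 0 means of at most 0.046 CPM and passed the filter through the injured libraries alone. The counts are therefore a description. Cxcl1, a ligand of Cxcr2, was at 0.884 to 1.84 CPM at day 0. In day 1 replicates 1 to 5 it was at 40.1, 41.1, 331, 354 and 267 CPM, and in day 3 replicates 1 to 5 at 54.6, 24.5, 17.4, 7.20 and 33.6 CPM. The 3 day 1 libraries with 1-digit numbers stood far above the pair with 3-digit numbers, and the former held the highest levels of all. Cxcl1 rose at day 1 (log2 7.32, SE 0.91, adjusted p = 6.46e-05) and was lower at day 3 than at day 1 (log2 -2.91, SE 0.65, adjusted p = 0.0106), and within day 1 it was lower in the 3-digit libraries (log2 -2.97, SE 0.57, adjusted p = 0.00207).

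Cxcl2, a second ligand of Cxcr2, followed the same split. It was at 3.61, 1.91, 134, 131 and 110 CPM in day 1 replicates 1 to 5 and at 1.30 to 20.3 CPM at day 3, where day 0 reached at most 0.126 CPM. It was lower in the 3-digit libraries at day 1 (log2 -5.51, adjusted p = 0.000168) and also at day 3 (log2 -2.23, adjusted p = 0.0164). Csf3, the ligand of Csf3r, had 0 reads in all 4 day 0 libraries and was at 0.377, 0.318, 3.34, 2.00 and 2.25 CPM in day 1 replicates 1 to 5. At day 3 it was at 0 to 2.20 CPM and was not called against day 0 (adjusted p = 0.0702). Within day 1 its formats did not overlap either, but the difference was not called (log2 -2.84, adjusted p = 0.0633). Cxcl3, Cxcl5 and Ppbp, further ligands of Cxcr2, rose at both days and were not called by format at day 1 (log2 -1.95, -0.51 and 0.17). Cxcl5 and Ppbp overlapped between the formats there. No test compared ligands with the neutrophil genes.

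**Figure D4:**
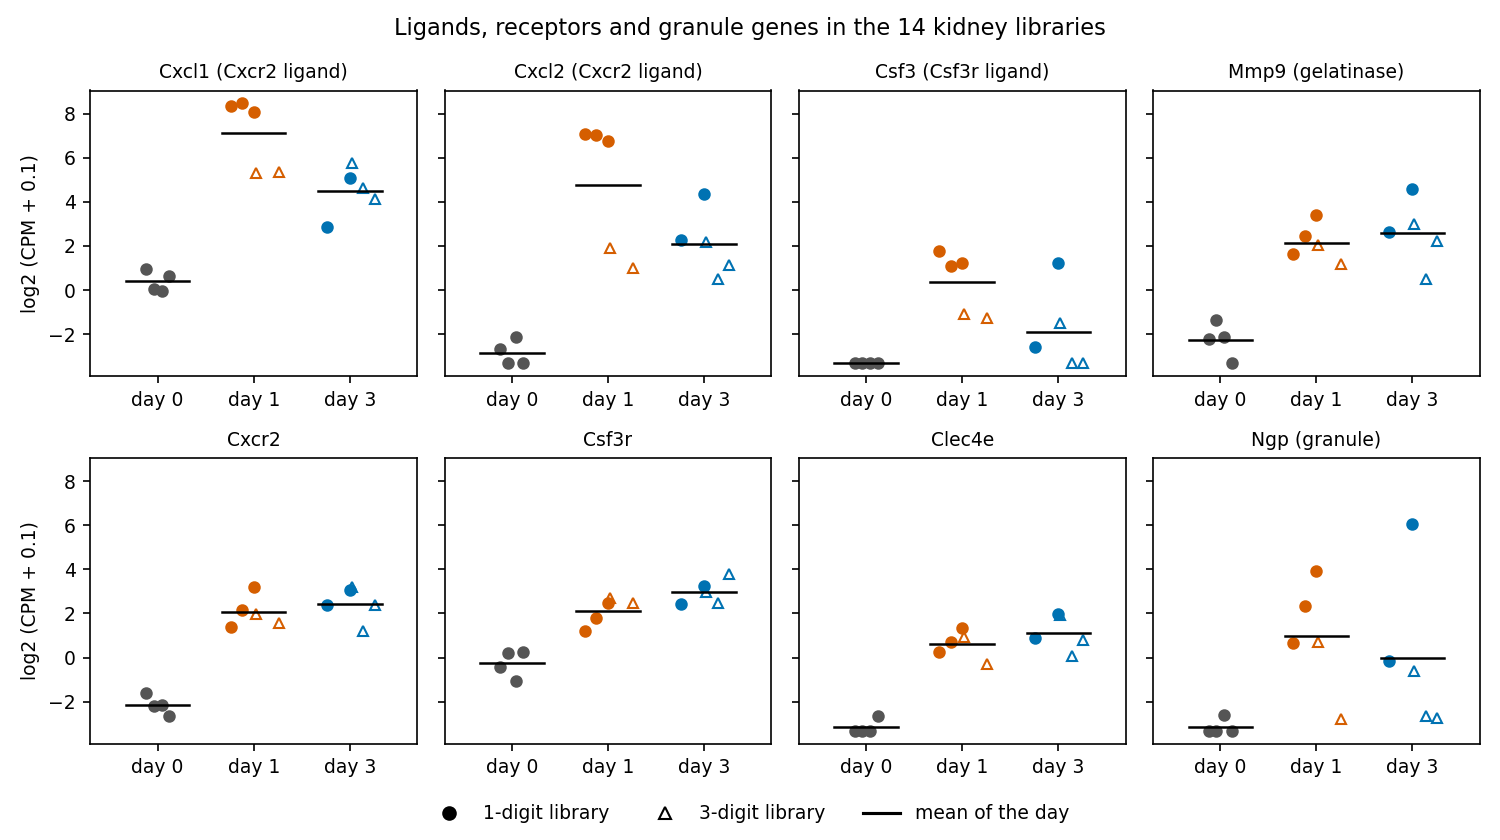
Level as log2 of CPM plus 0.1 in each library for ligands (Cxcl1, Cxcl2, Csf3), their receptors (Cxcr2, Csf3r) and further neutrophil genes (Mmp9, Clec4e, Ngp). Circles are 1-digit and triangles 3-digit libraries, lines the mean of a day. Cxcl2 separates into 110 to 134 CPM and 1.91 to 3.61 CPM by number format at day 1 while Cxcr2 does not.

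In the interleukin-1 system, Il1b, the cytokine that Il1r2 traps, rose at day 1 (log2 2.89, adjusted p = 0.00347) and day 3 (log2 3.05, adjusted p = 0.00345), from 0.715 CPM at day 0 to 5.37 ± 2.60 and 5.99 ± 5.39 CPM (SD, n = 5). Il1r1, the signalling receptor, rose by 1.55 and 1.40 on the log2 scale (adjusted p = 0.00237 and 0.00568), and Il1rn, the receptor antagonist, rose by 4.84 and 5.20 (adjusted p = 0.000325 and 3e-04). Il1rap, the shared accessory chain, was not called at either day (log2 -0.04 and 0.20). Il1a had at most 9 reads in a library and was not tested. Of the Trem1 partners, Pglyrp1, a ligand, rose by 5.21 and 5.34, and Tyrobp, the adaptor, by 0.74 and 2.07 on the log2 scale. Tlr4 and Ager, receptors of the S100a8 and S100a9 pair, rose by 0.84 and 2.08 at day 1 and by 1.51 and 2.90 at day 3. At day 1 Ager was at 3.27 to 6.40 CPM in the 1-digit libraries and at 1.08 and 0.681 CPM in the 3-digit libraries (log2 -2.44, adjusted p = 0.0132), against 0.544 to 0.883 CPM at day 0, so the 3-digit libraries lay at or near the day 0 range. Values for the 2 days share the day 0 libraries.

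Of 20 further neutrophil genes of the surface and cytoplasm, 4 did not pass the filter and Ly6g was not analysed. Of the 15 tested, 13 rose at day 1 and 14 at day 3, where 23.3% and 19.5% of all genes tested rose. Several, such as Stfa2l1 (0 CPM at day 0) and Clec4e (0.015 CPM), passed the filter through the injured libraries alone, so these counts are a description. The median log2 fold changes of the 15 were 4.26 and 4.88, where those of all tested genes were 0.01 and 0.05. The most abundant of them, G0s2, an inhibitor of lipid breakdown made by many cell types, rose from 19.9 ± 3.18 CPM (SD, n = 4) to 43.7 ± 17.4 (n = 5, adjusted p = 0.0363) and 101 ± 63.6 CPM (n = 5, adjusted p = 0.00122). Mxd1, a transcription factor also made outside neutrophils, was called at neither day (log2 0.50 and 0.62), and was lower on the 3-digit side at day 1 (log2 -1.19, adjusted p = 0.00641).

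Of 10 listed genes that neutrophil precursors transcribe in bone marrow, nearly all for granule proteins, 4 were tested. Among these, 2 (Ngp and Mmp9) rose at each day, where 23.3% (day 1) and 19.5% (day 3) of all genes tested rose. Both passed the filter through the injured libraries alone. Ngp, a secondary granule protein, was at 1.51, 0.045, 1.50, 4.92 and 15.2 CPM in day 1 replicates 1 to 5 and at 0.560, 0.056, 0.050, 0.807 and 66.1 CPM in day 3 replicates 1 to 5. Day 3 replicate 5 stood far above the rest. It was also the highest library for 6 of the 8 neutrophil genes, by the widest ratio for S100a8 (139 CPM against 54.5 in the next library) and the narrowest for Il1r2 (30.4 against 27.5 CPM). Of the primary granule genes, chosen for naming after their values were seen, Mpo, Elane and Ctsg had at most 1, 5 and 1 reads in any library, below what this depth could compare. Prtn3, also of the primary granules, had 0, 3, 0 and 0 reads in day 0 replicates 1 to 4, 4, 20, 0, 4 and 6 in day 1 replicates 1 to 5 and 11, 3, 8, 4 and 5 in day 3 replicates 1 to 5, and did not pass the filter. Olfm4 was not called (log2 -0.16 and 0.77), and at 17.4 CPM before injury it was far above the neutrophil genes of day 0.

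Other cell types that could carry these transcripts or be confused with neutrophils were measured beside them. Of 12 macrophage and monocyte markers 2 rose and 1 fell at day 1, where 23.3% of all genes tested rose and 18.7% fell. At day 3, 3 rose and 1 fell, where 19.5% of all genes rose and 13.8% fell. Csf1r, the receptor that macrophages need for survival, fell by 1.65 and 1.86 on the log2 scale (adjusted p = 0.000185 and 0.000123). Plac8, an abundant gene of monocytes and neutrophils, rose by 1.49 and 2.16 (adjusted p = 0.000674 and 8.73e-05), and the lysosomal protein Cd68, chosen after its values were seen, rose by 3.57 and 3.53 (adjusted p = 6.09e-05 and 0.000104). The summed level of the 12 was 128 to 180 CPM at day 0, 99.9 to 162 CPM at day 1 and 107 to 218 CPM at day 3, so these groups overlapped. Genes shared by all leukocytes rose for 3 of 8 at day 1 and 4 of 8 at day 3, with sums of 47.5 to 80.4, 60.6 to 96.6 and 71.9 to 141 CPM. The more abundant of these were Lcp1, an actin-bundling protein, which was called at neither day (log2 -0.51 and 0.39), and Laptm5, a lysosomal membrane protein, which rose by 0.94 and 0.84 (adjusted p = 0.0215 and 0.0429). Laptm5 was split by format at day 1 (log2 -0.97, adjusted p = 0.0175), and its 3-digit libraries (10.7 and 9.99 CPM) lay within the day 0 range of 6.59 to 11.4 CPM. Lcp1 (log2 0.88, adjusted p = 0.0302) and Plac8 (log2 0.75, adjusted p = 0.0426) were higher on the 3-digit side at day 1. At day 3, 6 of the 12 macrophage and monocyte markers were higher and 1 was lower on that side, where 18.5% of all genes were called by format. Csf1r was higher there (log2 0.93, adjusted p = 0.0179) and Cd68 lower (log2 -1.23, adjusted p = 0.0205).

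Lymphocyte markers summed to 2.24 to 4.66 CPM at day 0 and at most 2.98 CPM after injury, and of the 2 of 9 tested Cd8a fell at both days while Cd79b was not called. Mast cell and basophil markers were never above 1.01 CPM in sum, with at most 14 reads of Ms4a2 and 2 of Cma1 in a library, and 0 of 5 passed the filter. For blood left in the tissue, 3 of 8 red cell and platelet genes were tested, of which 1 (Pf4, a platelet chemokine) rose at each day. Among all genes tested, 23.3% rose at day 1 and 19.5% at day 3. The 4 globin genes are listed at 0 in all 14 libraries, so red cells could be followed by Alas2 only. That gene was at 7.74 to 15.1 CPM at day 0 and was called at neither injured day (log2 0.33 and -0.57), and neither was Itga2b, a platelet integrin (log2 0.53 and 0.47). Itga2b was lower on the 3-digit side at day 1 (log2 -1.85, adjusted p = 0.00127).

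Squamous and urothelial cells can make S100a8 and S100a9 as well. Of their 7 tested markers (8 listed) 0 rose at either day, where 23.3% (day 1) and 19.5% (day 3) of all genes tested rose. Upk2 fell at day 3 (log2 -4.44, adjusted p = 0.0233). Within day 1, 4 of the 7 were higher in the 3-digit libraries, where 35.0% of all genes were called by format. Krt14, one of the 4, went the other way by format at day 3 (log2 -4.48, 3-digit against 1-digit, adjusted p = 0.0419). Krt5, a keratin of basal cells, was at 53.8 and 8.41 CPM in day 1 replicates 2 and 1 against at most 1.29 CPM in the 1-digit day 1 libraries, and at 28.6 CPM in day 3 replicate 4. Upk1a, a protein of the urothelial surface, was not called between the formats of day 1 (log2 -0.06). S100a8 and S100a9 were highest at day 1 in replicate 5, where Krt5 was at 1.29 CPM, and were at 13.8 and 24.2 CPM in day 1 replicate 2. The part of squamous and urothelial cells in the levels of the pair was not tested.

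All 6 tubular injury genes rose at day 1 and 5 of 6 at day 3, and 3 and 5 of 8 proximal tubule genes fell. Among all genes tested, 23.3% rose and 18.7% fell at day 1, and 19.5% rose and 13.8% fell at day 3. Havcr1, the tubular injury marker Kim-1, was split by number format at day 1, at 75.7 ± 65.4 CPM (SD, n = 3) in 1-digit and 2437 ± 816 CPM (n = 2) in 3-digit libraries (log2 5.01, edgeR adjusted p = 0.00037), with day 0 at 106 ± 12.5 CPM (n = 4), so only the 3-digit mean lay above day 0. Slc34a1 was at 4975 ± 1237 CPM (n = 3) in 1-digit and 609 ± 294 CPM (n = 2) in 3-digit libraries of day 1 (edgeR adjusted p = 0.0015). Their part in the neutrophil values was not tested. Spp1, a secreted protein of injured tubules, rose by 4.01 and 4.57 on the log2 scale (adjusted p = 0.000222 and 0.000164), and was higher on the 3-digit side at day 1 (log2 1.49, adjusted p = 0.0344). Kap, an androgen-regulated tubule protein, was not called at day 1 (log2 -0.19) and fell by 2.40 at day 3 (adjusted p = 8.67e-05). Of 10 adhesion and homing genes 6 rose and 1 fell at day 1 and 7 rose at day 3, beside the shares of all genes given above. Icam1, the endothelial ligand of neutrophil integrins, rose by 2.34 and 1.75 on the log2 scale (adjusted p = 7.8e-05 and 0.000704). Cxcl12, which holds neutrophils in the bone marrow, fell by 1.69 at day 1 (adjusted p = 0.000222) and was not called at day 3 (log2 -0.44, adjusted p = 0.18).

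The genes whose log2 CPM followed the mean standardized level of the 8 most closely over the 14 libraries were Sdc1, Clec4e, Asprv1, Mmp9, Emp2, Tmem43, Lcn2, Leprot, Nras and Stfa2l1, with Pearson correlations from 0.972 to 0.985. Clec4e, an innate receptor, went from 0.015 CPM at day 0 to 1.52 and 2.38 CPM, and Mmp9, a gelatinase stored in neutrophil granules, from 0.134 to 5.03 and 8.81 CPM. Sdc1, a cell surface proteoglycan of epithelia and plasma cells, went from 13.4 to 78.0 and 93.1 CPM. These correlations describe 14 libraries that fall into uninjured and injured kidneys and share normalization. Over the 10 injured libraries only, 3 of the 10 genes (Asprv1, Mmp9 and Stfa2l1) stayed among the closest 10, which were led by Fpr2, a formyl peptide receptor of neutrophils (0.976), and Mmp9 (0.967). That restriction was chosen after seeing the data.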

How the data were processed

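Per the labels, TRIzol was used for total RNA and an Illumina TruSeq kit for the libraries. The submitters' processing notes name Trimmomatic, STAR and mm10, and versions are not given in the sources used here. The authors deposited, for each of 14 libraries, raw STAR counts of uniquely mapped reads per gene symbol, without strand and for each strand. The reverse-strand counts were used, which held 98.5% to 98.7% of strand-assigned reads. Rows that name no gene held 29.0% to 38.3% of reads and were left out. Uniquely mapped counting lowers genes with near-identical copies.

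Counts were analysed with edgeR 4.0.16 in R 4.3.3 (limma 3.58.1). Genes were kept by filterByExpr (14300 of 24411), TMM-scaled and tested by glmQLFit and glmQLFTest over all 14 libraries, in a fit with 1 term per day and another with 1 term per day and number format. Adjusted p-values (Benjamini-Hochberg over all genes tested) under 0.05 were called. Standard errors came from the fold change and F. The method was tested on simulated data with 200 changed genes. DESeq2 1.42.0 was an alternative, beside the unstranded column, RLE factors, no TMM, no filter, a fold change minimum, the format or replicate number as a term, subsets of libraries, and leaving out each library. Pooled ratios used scaled library sizes and exact 95% binomial intervals. RPKM used GENCODE M21 exon lengths, and all 8 genes matched the annotation and RefSeq promoters.

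The 8 genes and the 13 lists (127 genes) were chosen with earlier results of these data known. The genes named are the 8, the ligands and partners, the 2 most abundant genes of each other list, and the 10 genes most alike in pattern. Others (Fpr2, Cd68, Pf4, Mpo, Elane, Ctsg, Prtn3, Upk2, Krt14, Havcr1) were chosen after their values were seen. No library repeated another (chi-square over degrees of freedom between replicates 5.94 to 241).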

Additional observations from a re-analysis of the deposited data

Results flagged for a closer look

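In 4 day 0 libraries Retnlg had 1 read in replicate 3 (log2 CPM -2.47) and 0 in the others (-3.09), and Trem1 had 1 read in replicate 1 (log2 CPM -2.51) and 0 in the others (-3.09), so in both 1 read set a library apart from 3 at 0, whose spread is 0, and the difference is within counting error. Of 27 groups of libraries tested in this way 2 stood out, where chance gives 1.35.

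The difference between 3-digit and 1-digit libraries was not the same at day 1 and day 3 for 3 of 14 tested ligands and partners of the neutrophil genes in edgeR's test of the difference itself, which 17.6% of all genes passed. Day 1 minus day 3 was -3.63 on the log2 scale for Cxcl1 (adjusted p = 0.00709), -3.28 for Cxcl2 (adjusted p = 0.0133) and 2.90 for Pglyrp1 (adjusted p = 0.027). Cxcl1 was at 317 ± 44.9 CPM (SD, n = 3) in 1-digit and 40.6 ± 0.718 CPM (n = 2) in 3-digit libraries of day 1, and at 20.4 ± 18.7 CPM (n = 2) and 32.2 ± 19.7 CPM (n = 3) in those of day 3. Pglyrp1 was at 0.924 CPM in 1-digit and 2.01 CPM in 3-digit libraries of day 1, and at 2.66 and 0.775 CPM in those of day 3. The same test was passed by Krt5 (8.24, adjusted p = 0.0171), Krt14 (12.88, adjusted p = 0.00396), Havcr1 (4.77, adjusted p = 0.00387) and Spp1 (2.49, adjusted p = 0.0281). Laptm5 (-1.55, adjusted p = 0.0172), Itga2b (-1.67, adjusted p = 0.0201), Cd68 (2.03, adjusted p = 0.00814) and Csf1r (-0.98, adjusted p = 0.0482) passed it as well. Slc34a1 (-6.11, adjusted p = 0.000572) was among 6 of 8 proximal tubule genes that did. Further genes of the lists also passed it. What the number format stands for was not tested.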

How the results depend on the processing

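All 8 genes were called higher than day 0 at day 1 and day 3 in each of the 14 fits that left out 1 library. They were also called higher in the other settings that gave a value. Each of those 400 fold changes kept its direction and its call, but sizes moved. S100a8 at day 3 (log2 7.28) was at 6.16 with the replicate block and at 8.135 in the 1-digit libraries. S100a9 at day 3 (6.93) was at 5.88 with the block, and Il1r2 at day 1 (7.32) at 5.99 in the 3-digit libraries. At least 10 counts in every library left none of the 8 genes. Between day 3 and day 1, 0 were called in each setting. The share of all genes called there was 15.9%, but 6.02% with only those 2 days fitted and 32.0% in the 1-digit libraries alone. Of 1080 fold changes over all comparisons 1072 kept their call and 8 gained one, and none changed sign while called. Values that were not called did change sign, among them, without day 3 replicate 5, those of S100a8 and S100a9 between days 3 and 1 and by number format at day 3. The count by number format ranged from 0 to 1 at day 1 when 1 library was left out (1 without day 3 replicate 1 or day 3 replicate 2, Il1r2 in both, beside 39.4% and 38.2% of all genes tested) and from 0 to 4 at day 3 (4 without day 3 replicate 1, adjusted p = 0.0103 to 0.0423, beside 33.5% of all genes, and 2 without day 3 replicate 4, adjusted p = 0.026 and 0.0346, beside 18.7%, where day 3 replicate 5 is the lone 1-digit library). When 1 library was left out, all genes called by format at day 1 ranged from 1997 of 14226 (without day 1 replicate 2) to 5602 of 14231 (without day 3 replicate 1), and the share called ranged from 0.638% to 33.5% by format at day 3, from 8.85% to 22.1% for the difference of these and from 8.90% to 23.5% between days 3 and 1. Without day 1 replicate 1 or 2, or day 3 replicate 4 or 5, a format has 1 library at that day, which is assumed to vary like the other groups. The fold changes of day 3 against day 0 that moved most without day 3 replicate 5 were S100a8 (log2 6.13), S100a9 (5.88), Retnlg (8.84) and Il1r2 (6.70). Leaving out the day 0 library with the single read raised those of Retnlg (10.55 at day 1 and 11.45 at day 3 without day 0 replicate 3) and Trem1 (8.84 and 9.21 without day 0 replicate 1), and Il1r2 was at 8.10 and 8.05 without day 0 replicate 1. The cause was not tested.

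With the replicate number as a block 8, 8 and 0 of the genes were called at day 1 and day 3 against day 0 and between the injured days, and the block changed no call. Whether the numbers pair the libraries is not given in the labels. The deviations of same-numbered libraries correlated at -0.175 to 0.261 over 13 pairs, 4 of them over 0.1. Differently numbered libraries reached 0.534 and -0.499, a wider range, so this check cannot decide on pairing. Spearman in place of Pearson correlation kept 3 of the 10 most alike genes, and so did the 10 injured libraries only. Depth limits day 0, where 5 of the 8 genes had at most 9 reads in all 4 libraries together.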
